A study of Danio rerio with 16 samples.

Results

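The genes described here are 4 mitotic cyclins (ccna1, ccna2, ccnb1 and ccnb2), the cyclin ccne2, and the kinases plk1 and wee2. Their mRNA was read in zebrafish embryos treated with an inhibitor of protein synthesis. The genes were taken as all probes that the array's annotation assigns to these symbols, which gave 14 probes of 7 genes among 21495 probes tested and 9238 gene symbols in all. Of these, ccna2 and ccnb1 had 3 probes each, ccna1, ccne2 and plk1 had 2 each, and ccnb2 and wee2 had 1 each.

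Cell division is driven by cyclins, proteins that switch on cyclin-dependent kinases. A- and B-type cyclins work with Cdk1 to bring cells into mitosis, and E-type cyclins work with Cdk2 at the start of DNA replication. Plk1 promotes mitotic entry and spindle assembly, whereas Wee kinases hold Cdk1 back by phosphorylating it. A fish egg carries the mRNAs of this machinery from its mother, the first divisions run fast on that store, and the store is cleared after the embryo's own genes come on. In cleaving frog and sea urchin embryos, cyclin protein is destroyed and made anew in each cycle, and an inhibitor of protein synthesis stops the cycle.

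All embryos were put into cycloheximide, an inhibitor of translation, at a concentration of 15 µg/ml, starting at 1.5 hpf (hours post fertilization), and were collected at 4.7 hpf. The 5 groups were spg mutants of allele m793 injected with 100 pg Pou5f1 mRNA (MZ_Pou5f1, 3 samples), the same mutants injected with 50 pg Sox2 mRNA (MZ_Sox2, 4 samples), wild type injected with 50 pg Sox2 mRNA (WT_Sox2, 3 samples), uninjected mutants (MZ, 3 samples) and uninjected wild type (WT, 3 samples). MZ embryos lack the maternal and the zygotic function of Pou5f1, a transcription factor of early embryos. Each sample was RNA from a pool of 60 to 100 whole embryos, and 1 sample was 1 dye channel of a 2-colour array. In whole embryos, fewer cells of a type and less RNA per cell cannot be told apart. The p-values measure the spread between these samples, which the series' design text describes as biological replicates. The array gives no read depth, so the number of arrays limits the precision.

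The samples did not sort cleanly by their labels, and each group below is the set of samples that carry that label. Over 10747 probes of higher signal, 6 of 16 samples were most like a sample of their own group. WT replicates 1 and 2 were the most alike pair (Spearman correlation 0.997 across probes, which are not independent replicates), whereas WT replicate 3 was nearest to MZ replicate 2 (0.943), the sample on the same array. Whether channels or labels had been exchanged was not tested, and an exchange would alter the MZ and WT values below. Whether WT replicates 1 and 2 are independent samples was not tested either. If they are not, p-values of comparisons with WT may be too small. MZ replicate 3 was nearest to MZ_Sox2 replicate 3 (0.987). The sox2 probe had log2 intensities of 4.23 to 5.24 in WT_Sox2 and 6.75 to 8.30 in WT, and of 5.37 to 7.46 in MZ_Sox2 and 7.39 to 9.01 in MZ, so it did not mark the Sox2-injected samples. The pou5f3 probe, of the zebrafish Pou5f1 gene, spanned 13.79 to 14.93 in MZ_Pou5f1 and 14.68 to 15.92 in MZ. The position of either probe relative to the injected mRNA is not known here. Of the blastula markers, 8 of 10 were on the array and their median log2 intensity spanned 7.15 to 13.28 over the samples, against 3.07 to 5.58 for markers of later tissues such as muscle and blood.

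All 14 probes were above the array's dark control feature in 16 of 16 samples, with a lowest ratio of 1.79. Values are quantile-normalised intensities on a linear scale unless log2 is stated, and the columns of MZ_Pou5f1 replicate 2 and MZ_Sox2 replicate 4, which had another distribution, were mapped by rank onto that of the other 14. Because different probes bind differently, a level is compared only with the same probe in other samples. The plot of levels by group shows the probe of highest mean intensity of each gene.

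**Figure D1:**
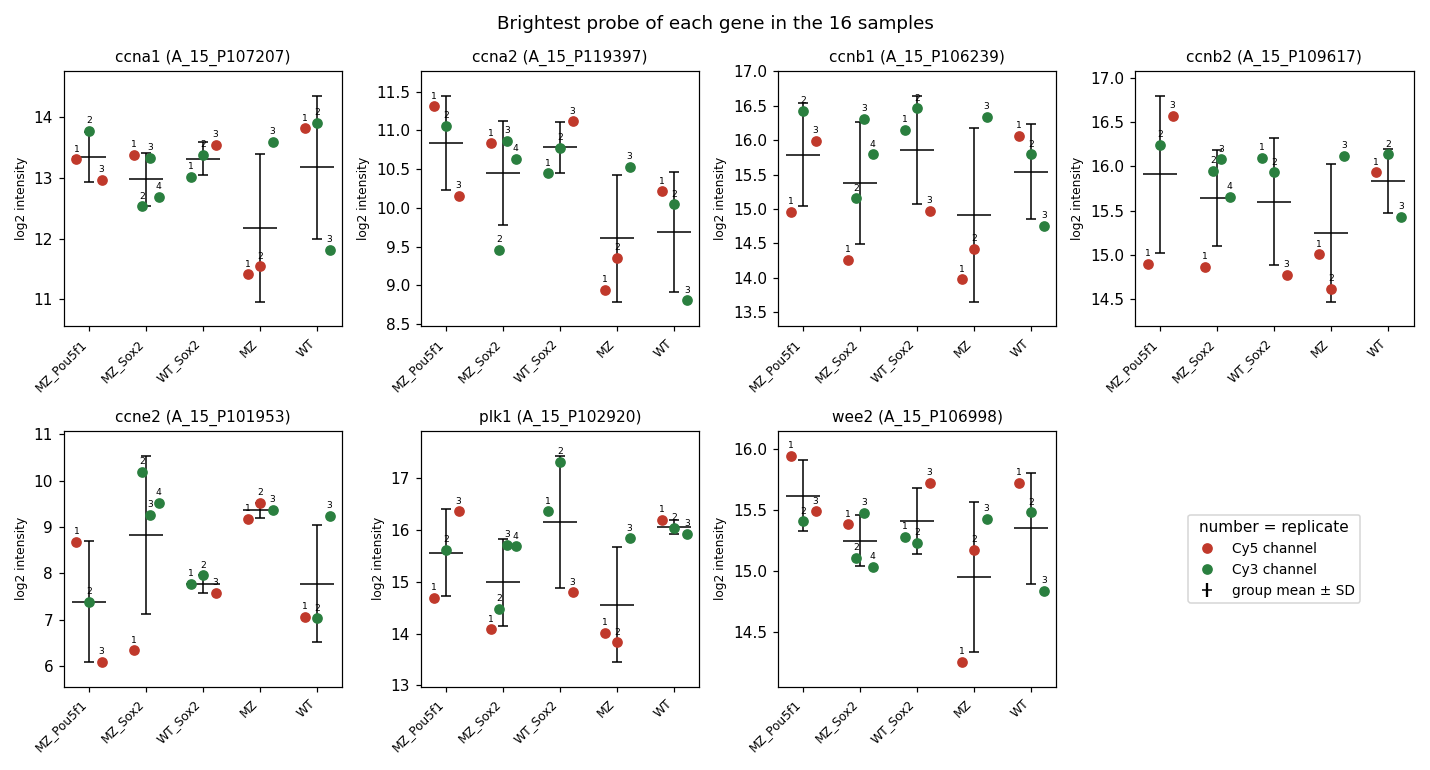
Log2 intensity of the probe with the highest mean intensity of each gene (vertical axis) in the 5 groups (horizontal axis), with 1 point per sample coloured by dye and numbered by replicate, and bars for the group mean ± SD. In ccna1, MZ replicates 1 and 2 and WT replicate 3 lie below all other samples, while in ccne2 the 3 MZ samples lie close together, at 9.36 ± 0.17.

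The A-type cyclins were read by 5 probes. ccna1 encodes the cyclin A known as the maternal form of the frog cleavage embryo. Its probe A_15_P107207 had intensities of 10140, 14090 and 7999 in MZ_Pou5f1 replicates 1 to 3, of 10700, 5917, 10330 and 6591 in MZ_Sox2 replicates 1 to 4 and of 8306, 10680 and 11990 in WT_Sox2. It had 2719, 2983 and 12350 in MZ, and 14450, 15370 and 3609 in WT. The low samples were MZ replicates 1 and 2 and WT replicate 3, so the MZ and WT samples overlapped and each group held both low and high values. The group means followed the order MZ_Pou5f1 (log2 13.35 ± 0.41), WT_Sox2 (13.32 ± 0.27), WT (13.18 ± 1.18), MZ_Sox2 (12.98 ± 0.44) and MZ (12.18 ± 1.22; SD, n = 3 or 4). No 2 neighbours in that order differed beyond their spread. The second ccna1 probe, A_15_P112849, spanned 3225 in MZ replicate 1 to 19290 in WT replicate 2, a range of 5.98-fold, against 5.65-fold for the first.

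ccna2 encodes the cyclin A that dividing cells use in S phase and at mitotic entry. Its probe A_15_P119397 had 2541, 2136 and 1139 in MZ_Pou5f1, 1822, 704.5, 1865 and 1590 in MZ_Sox2, 1397, 1749 and 2219 in WT_Sox2, 493.6, 657.1 and 1476 in MZ, and 1187, 1058 and 448.8 in WT. MZ replicates 1 and 2, WT replicate 3 and MZ_Sox2 replicate 2 were again the 4 lowest samples. The injected groups came first in the order of means, with MZ_Pou5f1 at log2 10.84 ± 0.61, WT_Sox2 at 10.78 ± 0.33 and MZ_Sox2 at 10.45 ± 0.67, before WT at 9.69 ± 0.77 and MZ at 9.61 ± 0.82 (SD, n = 3 or 4). The first 3 means lay within 1 SD of each other, as did the last 2. The other 2 ccna2 probes gave nearly the same pattern over the samples, with Pearson correlations of 0.94 to 0.96 among the 3 probes.

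Because a ccna2 difference had the smallest p of all members, its second probe, A_15_P116796, is given in full. It had intensities of 1624, 1471 and 994.4 in MZ_Pou5f1, 913.6, 457.8, 1154 and 1003 in MZ_Sox2, 1044, 1147 and 1470 in WT_Sox2, 238.1, 411.4 and 719.1 in MZ, and 929.7, 872.2 and 278.7 in WT. The 3 MZ_Pou5f1 samples lay above all 3 MZ samples and above all 3 WT samples. The third probe, A_15_P117095, had 1302, 1344 and 647.8 in MZ_Pou5f1, 820.2, 383.2, 950.9 and 833.7 in MZ_Sox2, 1135, 1353 and 1275 in WT_Sox2, 326, 472 and 721.5 in MZ, and 739.8, 600.4 and 205 in WT. On this probe the WT_Sox2 samples formed a tight group (log2 10.29 ± 0.13, SD, n = 3) above all WT samples.

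The B-type cyclins were read by 4 probes. ccnb1 encodes cyclin B1, the main partner of Cdk1 in mitosis. Its probe A_15_P106239 had 31910, 88250 and 65070 in MZ_Pou5f1, 19550, 36460, 81510 and 56810 in MZ_Sox2, 72960, 90220 and 32150 in WT_Sox2, 16120, 21900 and 83080 in MZ, and 68500, 56810 and 27640 in WT. Every group held low and high values, and all 5 groups overlapped. The means ran from log2 15.86 ± 0.79 in WT_Sox2 and 15.79 ± 0.75 in MZ_Pou5f1 through 15.54 ± 0.69 in WT and 15.38 ± 0.89 in MZ_Sox2 to 14.91 ± 1.26 in MZ (SD, n = 3 or 4), and no neighbours differed beyond their spread.

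The probe A_15_P101325 of ccnb1 had the widest range of the 14, at 48.7-fold. It had 33890, 39770 and 18400 in MZ_Pou5f1, 29410, 8059, 31200 and 12260 in MZ_Sox2, 22340, 32650 and 38080 in WT_Sox2, 2633, 2897 and 28480 in MZ, and 21340, 26060 and 816.4 in WT. WT replicate 3 and MZ replicates 1 and 2 lay far below the other 13 samples, and the same 2 groups also held samples above the median of 24120. The probe A_15_P119610 of ccnb1 had 13160, 15790 and 14850 in MZ_Pou5f1, 18150, 4934, 11000 and 6950 in MZ_Sox2, 11090, 9581 and 14640 in WT_Sox2, 5471, 5484 and 11980 in MZ, and 13940, 14760 and 5600 in WT. Its lowest samples were MZ_Sox2 replicate 2, MZ replicates 1 and 2 and WT replicate 3, and MZ_Pou5f1 lay above MZ without overlap. The ccnb1 probes followed each other less closely than those of ccna2. A_15_P101325 and A_15_P119610 correlated at 0.82 (Spearman 0.65; permutation p adjusted over 9 pairs 0.00022 and 0.012), but A_15_P106239 correlated with A_15_P119610 at 0.40 (Spearman 0.24, adjusted permutation p = 0.13 and 0.38).

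ccnb2 encodes cyclin B2, a second partner of Cdk1. Its probe A_15_P109617 had 30600, 77700 and 97430 in MZ_Pou5f1, 29830, 63210, 69270 and 51670 in MZ_Sox2, 70060, 62620 and 28050 in WT_Sox2, 32920, 25130 and 70980 in MZ, and 62620, 71950 and 44050 in WT. The groups overlapped throughout, and 13.8% of its variance lay between groups, the lowest share of the 14 probes. Its 5 lowest samples were all Cy5 channels. In the fit, the Cy5 minus Cy3 difference of ccnb2 was −0.79 on the log2 scale (SE 0.28, 95% interval −1.39 to −0.19, limma adjusted p = 1). For ccnb1 A_15_P106239 it was −1.03 (interval −1.82 to −0.25, adjusted p = 1) and for plk1 A_15_P102920 it was −1.01 (interval −1.84 to −0.19, adjusted p = 1). These were the 3 member probes of 14 with an unadjusted p under 0.05 for dye, against 3.02% of all probes, and 0 member probes passed after adjustment, against 0% of all probes. ccne2 A_15_P101953 was lower in Cy5 by a similar amount, −0.99 (interval −2.16 to 0.18), and its second probe by −0.5 (interval −1.48 to 0.48). Over the 14 probes, 8 were lower and 6 higher in Cy5. The fits of the groups below take dye into account.

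ccne2 encodes a cyclin E, the Cdk2 partner of the step into DNA replication, and it ran the other way from the mitotic cyclins in several samples. Its probe A_15_P101953 had 412.6, 167.1 and 68.29 in MZ_Pou5f1, 81.13, 1174, 614.5 and 737.5 in MZ_Sox2, 218.4, 249.3 and 191.3 in WT_Sox2, 579, 736.7 and 663.6 in MZ, and 134, 130.9 and 606.4 in WT. The 3 MZ samples lay close together and above all MZ_Pou5f1 and WT_Sox2 samples, and WT replicate 3 lay inside the MZ range. MZ_Sox2 spanned nearly the whole scale. The order of means was MZ (log2 9.36 ± 0.17), MZ_Sox2 (8.83 ± 1.71), WT (7.78 ± 1.27), WT_Sox2 (7.77 ± 0.19) and MZ_Pou5f1 (7.39 ± 1.30; SD, n = 3 or 4), with no neighbours apart beyond their spread.

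The second ccne2 probe, A_15_P115512, had 194.5, 90.45 and 110.6 in MZ_Pou5f1, 60.42, 690.9, 338.8 and 425.1 in MZ_Sox2, 133.5, 47.78 and 111.6 in WT_Sox2, 257.8, 345.9 and 373.3 in MZ, and 146.1, 143.6 and 181.4 in WT. Here the MZ samples lay above all WT, WT_Sox2 and MZ_Pou5f1 samples. However, the dark feature of MZ replicate 1 read 132.7, so its 257.8 was only 1.94 times that feature, the lowest ratio of this probe. The negative control feature read 13.48 in the same sample, so the controls differed on its background. The dark feature read 52.76 in WT replicate 3 and 8.237 and 7.004 in WT replicates 1 and 2. The 2 probes correlated at 0.82 over the 16 samples (Spearman 0.85; permutation p adjusted over 9 pairs 0.00022 and 9e-05), and at 0.81 without the 2 samples farthest from the median.

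plk1 encodes Polo-like kinase 1. Its probe A_15_P102920 had 26520, 50240 and 84510 in MZ_Pou5f1, 17370, 22800, 53810 and 52830 in MZ_Sox2, 84510, 163700 and 28410 in WT_Sox2, 16600, 14570 and 58860 in MZ, and 75290, 67810 and 62620 in WT. The 3 WT samples were close together and all above the 3 MZ samples, of which replicate 3 was only slightly lower than WT. The order of means was WT_Sox2 (log2 16.16 ± 1.28), WT (16.06 ± 0.13), MZ_Pou5f1 (15.56 ± 0.84), MZ_Sox2 (14.99 ± 0.84) and MZ (14.56 ± 1.11; SD, n = 3 or 4).

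The second plk1 probe, A_15_P119355, had 22760, 26420 and 18820 in MZ_Pou5f1, 24080, 18020, 25170 and 31270 in MZ_Sox2, 49120, 31750 and 25750 in WT_Sox2, 17930, 20370 and 24500 in MZ, and 21600, 22950 and 17490 in WT. It had the narrowest range of the 14 probes, 2.81-fold, against 11.2-fold on the first, and its 3 WT_Sox2 samples lay above all WT samples. The 2 plk1 probes did not follow each other past the threshold (Pearson 0.44, Spearman 0.34, adjusted permutation p = 0.098 and 0.21), and within the 7 Cy5 samples their correlation was −0.12.

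wee2 encodes the Wee kinase of oocytes and eggs. Its probe A_15_P106998 had 63210, 43490 and 46020 in MZ_Pou5f1, 42800, 35310, 45610 and 33520 in MZ_Sox2, 39770, 38450 and 54150 in WT_Sox2, 19500, 37030 and 44050 in MZ, and 54150, 45800 and 29270 in WT. MZ replicate 1 was the lowest sample and WT replicate 3 the next, and the range was 3.24-fold. The means ran from log2 15.62 ± 0.29 in MZ_Pou5f1 through 15.41 ± 0.27 in WT_Sox2, 15.35 ± 0.46 in WT and 15.25 ± 0.21 in MZ_Sox2 to 14.95 ± 0.62 in MZ (SD, n = 3 or 4), each neighbour within the spread of the next.

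Over all 5 groups together, 0 of the 14 probes passed limma's moderated F test at an adjusted p of 0.05, against 0% of all probes. At an unadjusted p under 0.05 there was 1 probe, ccna2 A_15_P116796 (unadjusted p = 0.0405, adjusted p = 0.486), against 10.1% of all probes. The median member probe had 35% of its variance between groups, against 32.7% for all probes, and a range of 2.54 on the log2 scale, against 2.17. The members thus varied among samples about as other probes did, and mostly inside groups. Differences between groups are given next in turn, first for injected against uninjected mutants. The groups share control samples across comparisons, MZ and WT each entering 3 of the 6 pairs, so the comparisons are not independent of each other.

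**Figure D2:**
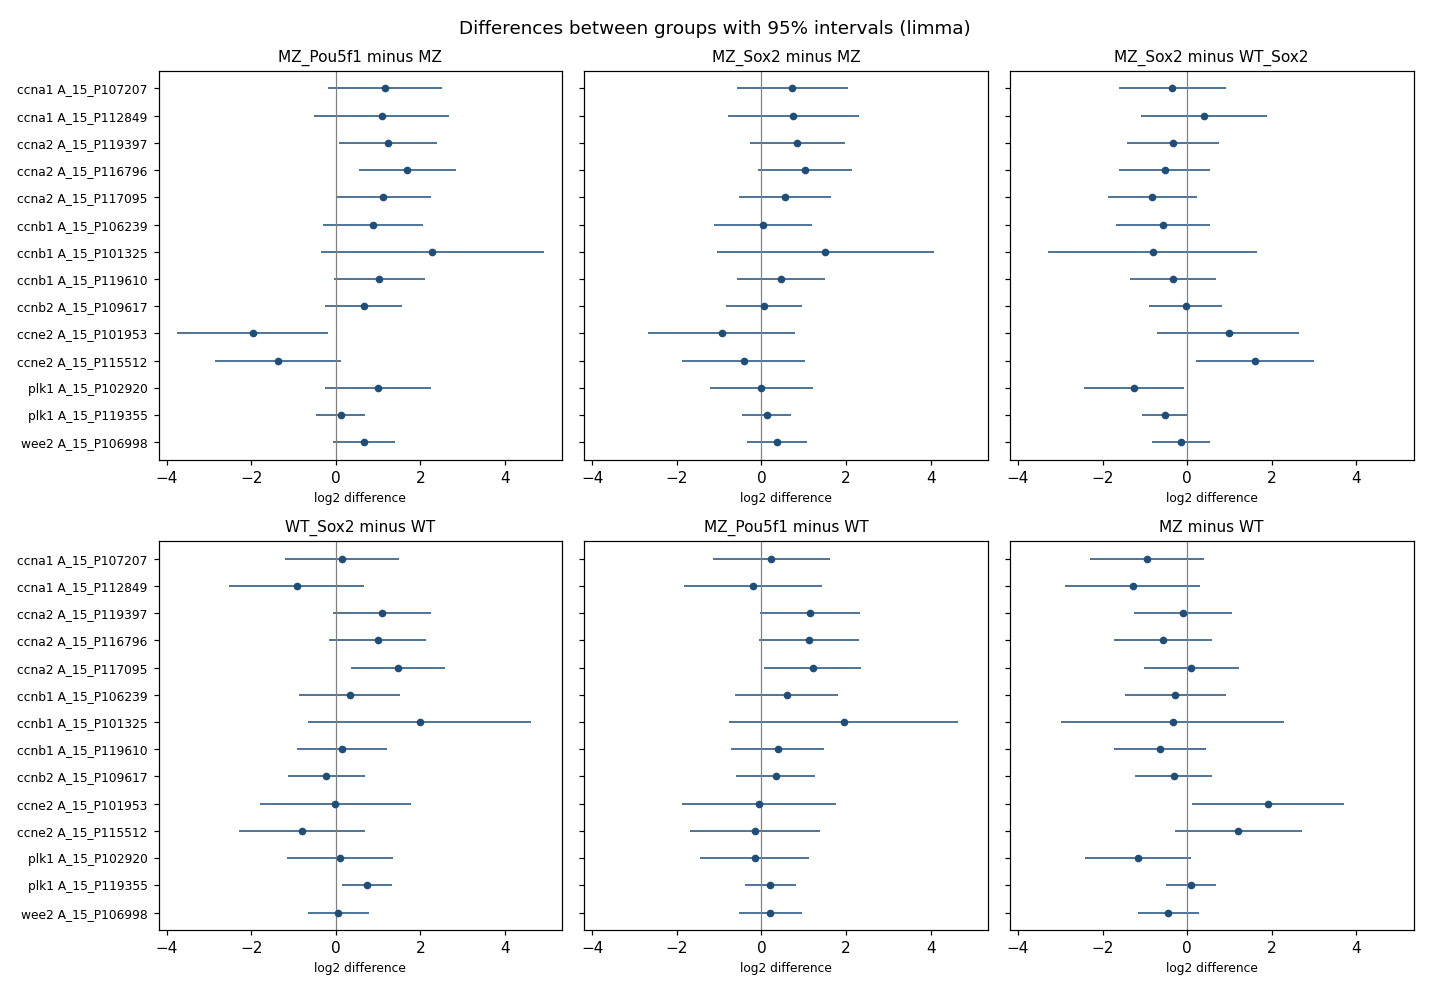
Difference of log2 intensity (horizontal axis) of each of the 14 probes (rows) in 6 comparisons (panels), from limma with all 16 samples, with points for the estimates and bars for 95% intervals. In the panel of MZ_Pou5f1 minus MZ, 12 of 14 points lie above 0 and both ccne2 probes lie below it, and none passed the threshold.

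MZ_Pou5f1 against MZ compares injected with uninjected mutants, all in cycloheximide. No group was injected with a control mRNA, so injection itself and the injected Pou5f1 or Sox2 mRNA cannot be told apart. How far protein synthesis was stopped was not measured here. Of the 14 probes, 12 were higher and 2 lower in MZ_Pou5f1, against 57.5% higher among the probes of higher signal. The member median was 1.01 on the log2 scale, against 0.06 over all probes and 0.15 over those of higher signal. No member probe passed limma's test after adjustment (smallest adjusted p = 0.409), against 0% of all probes, and 3 had an unadjusted p under 0.05, against 12.2%. ccna2 A_15_P116796 differed by 1.69 (SE 0.53, 95% interval 0.55 to 2.84, 3.23-fold, limma adjusted p = 0.409) and ccna2 A_15_P119397 by 1.23 (interval 0.07 to 2.39). ccne2 A_15_P101953 differed by −1.97 (SE 0.82, interval −3.76 to −0.18, adjusted p = 0.409), and its second probe by −1.37 (interval −2.86 to 0.13). The largest estimate of the members was that of ccnb1 A_15_P101325, at 2.28 with a wide interval of −0.36 to 4.92. ccna2 A_15_P116796 and ccnb1 A_15_P119610 lay above MZ in all samples, a pattern of 10.4% of all probes, and both ccne2 probes lay below, a pattern of 6.51%.

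Single MZ samples moved this comparison in both directions. Without MZ replicate 3, ccna2 A_15_P116796 was higher in MZ_Pou5f1 by 2.23 and passed limma's threshold (adjusted p = 0.043), as did 958 of all probes, and it was the only member probe that did. Without MZ replicate 1 the same difference was 1.05 (adjusted p = 0.936) and that of ccna2 A_15_P119397 was 0.75, against 1.84 without MZ replicate 3. The ccne2 A_15_P101953 difference was −2.83 without MZ_Pou5f1 replicate 1 and −1.46 without MZ_Pou5f1 replicate 3. On the slide that held the 3 MZ_Pou5f1 samples together with MZ replicate 3, the 14 differences had a median of −0.11 and 8 of them were below 0. There ccna1 A_15_P107207 differed by −0.24 and ccnb1 A_15_P106239 by −0.55, but ccna2 A_15_P116796 by 0.89 and ccne2 A_15_P101953 by −1.99. The ccne2 and ccna2 differences thus had the same sign within that slide. So did those of wee2 (0.19) and of ccnb1 A_15_P101325 (0.03) and A_15_P119610 (0.28). Those of ccna1, ccnb2, plk1 and ccnb1 A_15_P106239 did not.

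MZ_Sox2 against MZ gave smaller values. Again 12 probes were higher and 2, both of ccne2, lower, against 58.4% higher among the probes of higher signal. The member median was 0.41, against 0.04 over all probes and 0.12 over those of higher signal. No member probe passed limma's test (smallest adjusted p = 0.77), against 0% of all probes, none had an unadjusted p under 0.05, against 4.82%, and no probe separated the groups, against 2.11% of all probes higher and 2.09% lower. ccnb1 A_15_P101325 had the largest estimate, 1.51 (interval −1.06 to 4.08). The probe with the smallest unadjusted p was ccna2 A_15_P116796, at 1.02 (interval −0.09 to 2.14). It was 0.49 without MZ replicate 1 (adjusted p = 1) and 1.69 without MZ replicate 3 (adjusted p = 0.124). For plk1 A_15_P102920 the difference was 0.00 with an interval of −1.22 to 1.23, and for ccnb2 it was 0.06 with an interval of −0.83 to 0.95. These intervals allow a change in either direction. The 2 groups shared no slide, and with slide as a random block the smallest adjusted p was 0.96.

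WT_Sox2 against WT compares Sox2-injected with uninjected wild type, and here the ccna2 probes and 1 plk1 probe were higher without any call. Of the 14 probes 10 were higher and 4 lower, against 54.9% higher among the probes of higher signal. The member median was 0.14, close to the 0.1 of the probes of higher signal, against −0.06 over all probes. limma called 0 of the 14 (smallest adjusted p = 0.227), against 0.0977% of all probes, and 2 had an unadjusted p under 0.05, against 14.5%. These were ccna2 A_15_P117095, at 1.48 (SE 0.52, interval 0.36 to 2.59, adjusted p = 0.227), and plk1 A_15_P119355, at 0.74 (SE 0.27, interval 0.15 to 1.33, adjusted p = 0.244). ccnb1 A_15_P101325 had a larger estimate, 1.98, with an interval of −0.66 to 4.62. All 3 ccna2 probes and plk1 A_15_P119355 lay above WT in every sample, a pattern of 12% of all probes, and ccne2 A_15_P115512 lay below in every sample, a pattern of 15.3%. Leaving out 1 sample of either group, the ccna2 A_15_P117095 difference ran between 0.88 without WT replicate 3 (adjusted p = 0.364) and 1.96 without WT replicate 1 (adjusted p = 0.133). The probes called over the whole array, 21 here, numbered 190 without MZ_Pou5f1 replicate 3, 121 without WT_Sox2 replicate 3 and 0 without WT_Sox2 replicate 1 or WT replicate 1. The 2 groups shared no slide, and with slide as a random block the difference was 1.39 (adjusted p = 0.44).

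In MZ_Sox2 against WT_Sox2, 3 probes were higher and 11 lower, against 46.5% higher among the probes of higher signal. The member median was −0.34, against 0 over all probes and −0.04 over those of higher signal. No member probe passed limma's test (smallest adjusted p = 0.576), against 0.0186% of all probes, and 2 had an unadjusted p under 0.05, against 7.57%. ccne2 A_15_P115512 differed by 1.60 (SE 0.65, 3.03-fold, adjusted p = 0.576), and with slide as a fixed block by −0.69. On the slide that held MZ_Sox2 replicate 1 with the 3 WT_Sox2 samples it differed by −0.56, and MZ_Sox2 replicates 2 to 4 lay on another slide. plk1 A_15_P102920 differed by −1.25 (SE 0.54, interval −2.43 to −0.08, adjusted p = 0.622) and by −2.08 on that shared slide, but by −0.81 without WT_Sox2 replicate 2. The second plk1 probe differed by −0.52 (interval −1.07 to 0.03). The ccne2 A_15_P115512 difference was 2.43 without MZ_Sox2 replicate 1 and 1.02 without WT_Sox2 replicate 2. The array as a whole had 4 calls here, 97 without WT_Sox2 replicate 3 and 26 without WT_Sox2 replicate 2. The 1 probe without overlap was ccna2 A_15_P117095, lower in MZ_Sox2, a pattern of 5.37% of all probes. No probe was higher without overlap, against 4.89%. Whether injecting Sox2 mRNA acted differently in the 2 genotypes was tested as the difference of its effects. Here 0 of 14 probes passed (smallest limma adjusted p = 0.638, and 0 at an unadjusted p under 0.05), against 0% and 9.09% of all probes.

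MZ_Pou5f1 against WT sets injected mutants beside uninjected wild type. Of the 14 probes 10 were higher and 4 lower, against 54.9% higher among the probes of higher signal. The member median was 0.28, against −0.04 over all probes and 0.07 over those of higher signal. No member probe passed limma's test (smallest adjusted p = 0.682), against 0% of all probes. The 1 probe with an unadjusted p under 0.05, against 7.24% of all probes, was ccna2 A_15_P117095, at 1.21 (SE 0.53, interval 0.07 to 2.36, adjusted p = 0.682). It was 0.67 without WT replicate 3 (adjusted p = 0.841) and 1.78 without WT replicate 1 (adjusted p = 0.326). ccnb1 A_15_P101325 had a larger estimate, 1.94, with an interval of −0.76 to 4.64. ccna2 A_15_P116796 lay above WT in every sample, a pattern of 6.66% of all probes, and no member probe lay below, against 8.84%. On the slide that held the 3 MZ_Pou5f1 samples and WT replicate 1, 7 differences were above 0 and 7 below, with a median of 0.02.

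MZ against WT compares the mutants with wild type. Of the 14 probes 4 were higher and 10 lower in MZ, against 47.3% higher among the probes of higher signal. The member median was −0.33, against −0.04 over all probes and −0.05 over those of higher signal. limma called 0 of the 14 (smallest adjusted p = 0.389), against 0.00465% of all probes, and 1 had an unadjusted p under 0.05, against 12.2%. That was ccne2 A_15_P101953, at 1.91 (SE 0.82, interval 0.12 to 3.70, 3.75-fold, adjusted p = 0.389), while its second probe stood at 1.21 (interval −0.29 to 2.71) and lay above WT in every sample, a pattern of 5.23% of all probes. plk1 A_15_P102920 differed by −1.16 (interval −2.42 to 0.10) and lay below WT in every sample, a pattern of 7.96%, but the second plk1 probe, A_15_P119355, differed by 0.09 (interval −0.50 to 0.69), by −0.05 without WT replicate 3 and by −0.54 scaled to ribosomal protein genes.

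Single samples moved this comparison as well. The ccne2 A_15_P101953 difference was 2.48 without WT replicate 3, 1.33 without WT replicate 2, 1.48 without MZ replicate 1 and 1.47 without MZ replicate 2, with adjusted p of 0.136 to 0.952 over the 6 samples left out in turn, and 1.27 with the samples scaled to ribosomal protein genes. With no dye covariate the ccne2 A_15_P101953 difference was 1.58. The array as a whole had 1 call here, but 1431 without WT replicate 2 and 1359 without MZ replicate 1. No member probe was among them (smallest adjusted p = 0.0812 and 0.0967).

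Each MZ sample shared its array with a WT sample, which gives 3 differences free of the array but not of dye. MZ replicate 3 was the Cy3 channel of its array, and MZ replicates 1 and 2 were the Cy5 channels of theirs. For ccne2 A_15_P101953 they were 2.31 (MZ replicate 3 and WT replicate 1), 2.14 (MZ replicate 1 and WT replicate 2) and 0.28 (MZ replicate 2 and WT replicate 3), all with MZ higher. ccne2 A_15_P115512 gave 1.35, 0.84 and 0.93 in the same order of arrays. plk1 A_15_P119355 gave 0.18, −0.36 and 0.22. For plk1 A_15_P102920 the values were −0.36, −2.03 and −2.1, and in the array of −0.36 MZ was the Cy3 channel while in both others it was the Cy5 channel. ccnb1 A_15_P101325 gave 0.42, −3.31 and 1.83, so its sign depended on the array. Over the 14 probes the medians of the 3 arrays were 0.07, −1.33 and 0.25.

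The heat map of all 14 probes shows a pattern that crossed the groups. Among the 12 probes other than ccne2, MZ replicate 1 was 1 of the 4 lowest samples for 11, MZ replicate 2 and WT replicate 3 for 10 each, and MZ_Sox2 replicate 2 for 9. The next was MZ_Sox2 replicate 1, for 3, and each of the other 11 samples was for at most 1. MZ replicates 1 and 2 and WT replicate 3 shared a slide with WT replicate 2, while MZ_Sox2 replicate 2 was on another slide. At the other end, MZ_Pou5f1 replicate 2 was 1 of the 4 highest samples for 10 of the 12 probes. Both ccne2 probes had MZ_Sox2 replicates 2 and 4 and MZ replicates 2 and 3 as their 4 highest samples. The share of other probes with the same lowest or highest samples was not computed, so these patterns cannot be called particular to the members.

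**Figure D3:**
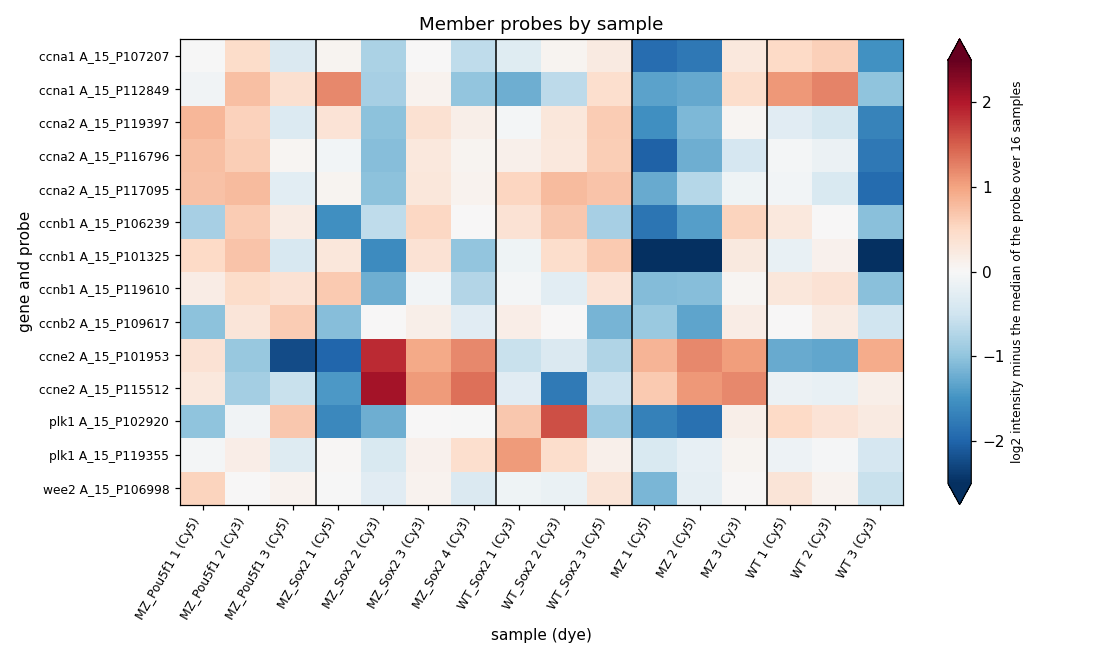
Log2 intensity of the 14 probes (rows) in the 16 samples (columns, with the dye in brackets), each minus the probe's median over the samples, with colours running from 2.5 below to 2.5 above and vertical lines between the groups. MZ replicates 1 and 2, WT replicate 3 and MZ_Sox2 replicate 2 are blue in most mitotic rows, while the ccne2 rows are red in MZ_Sox2 replicates 2 to 4 and in the MZ samples.

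The members were set against each other over the 16 samples, 1 probe per gene, which makes 21 pairs. Of these, 7 had an adjusted permutation p under 0.05 for Pearson and 3 for Spearman as well. The share among pairs of other probes was not computed, so these correlations cannot be called particular to the members. Among ccna1, ccna2 and wee2, the pair ccna1 and wee2 stood at Pearson 0.78 and Spearman 0.69 (permutation p adjusted over 21 pairs 0.0022 and 0.03), ccna1 and ccna2 at 0.79 and 0.52 (0.0026 and 0.091), and ccna2 and wee2 at 0.74 and 0.59 (0.0026 and 0.08). Among ccnb1, ccnb2 and plk1, the pair ccnb1 and ccnb2 stood at 0.85 and 0.72 (0.0012 and 0.03), ccnb1 and plk1 at 0.84 and 0.70 (0.0012 and 0.03), and ccnb2 and plk1 at 0.76 and 0.63 (0.0026 and 0.052). The seventh pair was ccna1 and ccnb1, at 0.65 and 0.53 (0.019 and 0.091). Without the 2 samples farthest from the median, its Pearson value was 0.39 and the other 6 were 0.51 to 0.82.

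The pairs differed by dye, and the ccnb1, ccnb2 and plk1 probes were those lower in Cy5 at an unadjusted limma p under 0.05. The ccne2 probe was lower in Cy5 by a similar amount without reaching that level. Within the 9 Cy3 samples ccnb2 and plk1 correlated at 0.00 and ccnb1 and plk1 at 0.47, against 0.92 and 0.97 within the 7 Cy5 samples. ccnb1 and ccnb2 correlated at 0.73 within Cy3 and at 0.83 within Cy5. The pair ccna1 and wee2 gave 0.93 and 0.83 and the pair ccna1 and ccna2 gave 0.74 and 0.85 within Cy3 and Cy5. Within Cy3, pairs across these genes were as high, with ccna2 and ccnb1 at 0.95, ccnb2 and wee2 at 0.93, ccna1 and ccnb2 at 0.88, ccna1 and ccnb1 at 0.82 and ccnb1 and wee2 at 0.77, against 0.28, 0.17, 0.30, 0.61 and 0.62 within Cy5. The slides held 3 to 5 samples each, too few for a correlation. The correlation of ccne2 with every other member was below 0, lowest with ccna1 (Pearson −0.56, Spearman −0.56), which missed the threshold (adjusted permutation p = 0.063 and 0.084).

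On the ccna1, ccna2 and wee2 probes and ccnb1 A_15_P101325 and A_15_P119610, low samples tended to be those with high early zygotic transcripts. These transcripts come from the genes that the embryo first switches on itself. The ccnb2 and plk1 probes and ccnb1 A_15_P106239 missed the threshold for this relation over both dyes together, as given below. The early zygotic level of a sample was taken as the median log2 intensity of 46 genes of a list of 51. That list was chosen with earlier results of these data known. It was highest in MZ replicates 1 and 2 (11.64 and 11.61) and WT replicate 3 (11.45), then 10.22 in MZ_Sox2 replicate 2, and lowest in MZ_Pou5f1 replicate 2 (6.25). ccnb1 A_15_P119610 had the closest inverse relation to it, at Pearson −0.93 and Spearman −0.94 (permutation p = 1e-05 for both, the smallest that the permutations can give, and 0.00014 adjusted over 14 probes). It was −0.89 without the 2 farthest samples, −0.85 within Cy3 and −0.98 within Cy5. The permutations treated all samples as exchangeable, whatever their group, slide, dye or array, so these p-values may be too small. Among 10674 other probes of higher signal, 0.0281% lay at or below −0.93.

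The other A-type, B-type and Wee probes differed in how far they shared this relation. ccna1 gave −0.85 on both probes (Spearman −0.79 and −0.82, adjusted permutation p at most 0.0027) and ccnb1 A_15_P101325 gave −0.79 (Spearman −0.71). ccna2 gave −0.63 to −0.78 (adjusted permutation p of 0.013 or less for Pearson). By Spearman, ccna2 A_15_P117095 missed the threshold (−0.52, adjusted permutation p = 0.059), while the other ccna2 probes passed (0.023 for each). wee2 gave −0.73 (Spearman −0.75, adjusted permutation p = 0.0034). Of the other probes, 1.14% lay at or below the first ccna1 probe, 8.36% at or below wee2 and 4.46% to 17.5% at or below the ccna2 probes. The weaker of these values were thus common on the array. ccnb1 A_15_P106239 (−0.38), ccnb2 (−0.30) and both plk1 probes (−0.23 and −0.24) missed the threshold (adjusted permutation p = 0.17 or more in Pearson and Spearman alike). Within Cy3 and within Cy5, ccnb2 gave −0.80 and −0.43 and ccnb1 A_15_P106239 gave −0.56 and −0.62. plk1 A_15_P102920 gave −0.03 and −0.62, and plk1 A_15_P119355 gave −0.29 and −0.61. The relation within each dye was not tested. ccne2 was higher where the early zygotic level was higher, at 0.81 and Spearman 0.76 on A_15_P101953 (adjusted permutation p = 0.00078 and 0.0034) and at 0.55 and 0.59 on A_15_P115512 (0.039 and 0.026). At or above 0.81 lay 2.41% of the other probes and at or above 0.55 lay 13.8%, so the value of the second probe was common on the array.

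The 3 samples of highest early zygotic level, MZ replicates 1 and 2 and WT replicate 3, shared a slide with WT replicate 2, whose level was 7.06. The part of the slide in the relation was not tested. Because these 3 samples stood above the other 13, 11.45 or more against 10.22 or less, the relation was also read within those 13. ccnb1 A_15_P119610 kept −0.85 (Spearman −0.91) and ccne2 A_15_P101953 kept 0.82 (0.78). ccna1 gave −0.62 and −0.76 on its 2 probes, wee2 −0.56 and ccnb1 A_15_P101325 −0.51. The ccna2 probes gave −0.22 to −0.46, so most of their relation rested on the 3 samples. ccnb2, ccnb1 A_15_P106239 and the plk1 probes gave 0.13 to 0.20.

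**Figure D4:**
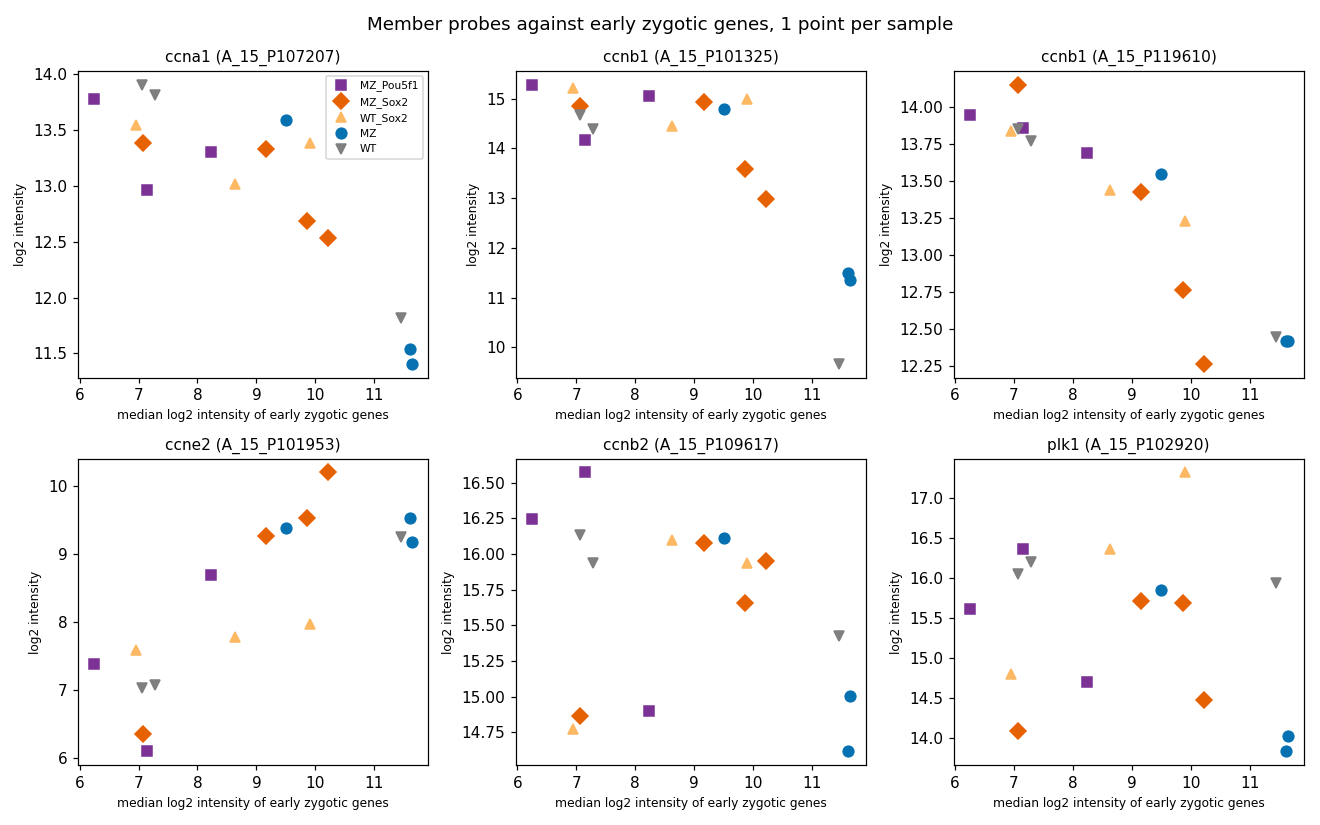
Log2 intensity of 6 member probes (vertical axis) against the median log2 intensity of 46 early zygotic genes (horizontal axis), with 1 point per sample and 1 symbol per group. The ccna1 probe and the ccnb1 probes A_15_P101325 and A_15_P119610 slope down and ccne2 slopes up (Pearson −0.85, −0.79, −0.93 and 0.81). The third ccnb1 probe (−0.38) is not drawn. Over both dyes together, ccnb2 and plk1 show no relation past the threshold (−0.30 and −0.23).

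Other measures moved with the same samples. The median intensity of 10 spike-in control features was 29250 in MZ replicate 1, 18100 in MZ replicate 2, 12700 in WT replicate 3 and 11140 in MZ_Sox2 replicate 2, and 9188 or less elsewhere, with 48.73 and 75.43 in WT_Sox2 replicates 1 and 2. It was 1513 in WT replicate 2, which shared a slide with MZ replicates 1 and 2 and WT replicate 3. The dark control feature read 132.7 in MZ replicate 1 and 52.76 in WT replicate 3, against 6.85 to 12.57 in all others. Of the 14 member probes, 7 correlated with the log2 spike-in level at an adjusted permutation p under 0.05 for Pearson, and each was lower where it was higher. The closest was plk1 A_15_P119355, at −0.84 and Spearman −0.73 (permutation p adjusted over 14 probes 0.0007 and 0.012). The other 6 were plk1 A_15_P102920 (−0.67), the 3 ccna2 probes (−0.57 to −0.69), ccnb1 A_15_P106239 (−0.63) and ccnb1 A_15_P101325 (−0.59). By Spearman, ccna1 A_15_P107207 (−0.57) and wee2 (−0.56) passed as well (adjusted permutation p = 0.039 for both). The share of all probes that would pass was not computed, so this relation cannot be called particular to the members. ccnb1 A_15_P119610 gave −0.37 and Spearman −0.34 (adjusted permutation p = 0.19 and 0.28). Without WT_Sox2 replicates 1 and 2, the samples farthest from the median, it gave −0.64, ccna1 A_15_P107207 −0.82 and wee2 −0.80, against −0.54 and −0.41 for the last 2 over all samples. Enveloping layer markers, of the embryo's outer epithelium, numbered 12 of 14 on the array. Their summed intensity spanned 26900 to 54700 in MZ_Pou5f1, 32500 to 57900 in MZ_Sox2, 37400 to 48600 in WT_Sox2, 33700 to 56700 in MZ and 31900 to 52600 in WT. Yolk syncytial layer markers numbered 8 of 10, with sums of 1430 to 4110, 2060 to 25000, 3100 to 6280, 4650 to 18300 and 2590 to 18900 in the same order of groups. In MZ_Sox2 replicate 2, WT replicate 3 and MZ replicates 1 and 2 the enveloping layer median was 9.60, 9.18, 9.58 and 9.44, against 8.85 or less elsewhere. Of the enveloping layer markers, 1 was at or below the dark feature in all WT_Sox2 samples and 1 in all MZ samples, and no yolk syncytial marker was at or below the dark feature in all samples of a group. The part of these measures in the member patterns was not tested.

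The rest of the cell cycle machinery was read from lists. Over the 7 comparisons, limma called 0 of 17 other cyclins and cyclin-dependent kinases, 0 of 18 other mitotic kinases and regulators, 0 of 12 genes of the anaphase-promoting complex and separase pathway, 0 of 25 DNA replication genes and 0 of 18 checkpoint genes, against 0% to 0.0977% of all probes. In MZ_Pou5f1 against MZ, where the 7 members (1 probe each) had a median of 0.88, the anaphase genes had 0.64, the replication genes 0.35, the mitotic kinases 0.33, the other cyclins 0.09 and the checkpoint genes −0.12. At an unadjusted p under 0.05 the numbers higher and lower in that comparison were 2 and 1, 4 and 1, 2 and 1, 1 and 3, and 1 and 4 in the same order of lists, against 12.2% of all probes in either direction. The early zygotic list, like the others, was chosen with earlier results of these data known, so its distance from them is a description only. It had a median of −2.91 and 37 of 46 genes lower at an unadjusted p under 0.05, though limma called none of them (smallest adjusted p = 0.409). In MZ against WT its median was 2.1, while that of 22 maternal egg transcripts was 0.12 and that of the 7 members −0.32.

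Of the genes with the largest moderated F in each list, 2 are described, chosen after their values were seen. smc3, which encodes a cohesin subunit that holds sister chromatids together, had a log2 mean of 13.16 ± 0.18 in MZ_Pou5f1, 12.39 ± 0.52 in MZ_Sox2, 13.36 ± 0.36 in WT_Sox2, 11.63 ± 0.82 in MZ and 12.92 ± 1.03 in WT (SD, n = 3 or 4), with a difference of 1.54 for MZ_Pou5f1 against MZ (limma adjusted p = 0.409). ccne1, the other cyclin E gene, had 13.50 ± 0.13, 13.69 ± 0.56, 12.19 ± 0.68, 13.07 ± 1.03 and 13.82 ± 0.45 in the same order of groups. Its WT_Sox2 minus WT difference was −1.63 (limma adjusted p = 0.18) and its MZ minus WT difference −0.66 (adjusted p = 0.585), whereas ccne2 A_15_P101953 gave −0.01 and 1.91. Of the rest, smc1al, gadd45bb, gadd45aa, mcm6, lig1, ccnf, plk4 and aurkb had limma F tests at adjusted p of 0.433 to 0.545, and klf17, hspb1, zp3 and ca15b of the early zygotic and maternal lists at 0.357 to 0.374.

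By likeness over the 16 samples, searched among 6341 genes of higher signal and given as a description, each member had close companions. For ccna2 these were bckdha, aldoaa and nadkb (Pearson 0.98, 0.972 and 0.959), for ccna1 zdhhc15b, lrrn1 and slc17a5 (0.949, 0.948 and 0.94), and for wee2 eya3, dctn3 and tnfrsfa (0.932, 0.913 and 0.912). For ccnb1 they were fam120c, hinfp and ncl (0.906, 0.903 and 0.877), and ncl also led for ccnb2 (0.896), before actb2 and slc26a11 (0.853 and 0.852). plk1 was most like ap1s3b, pkma and plk3 (0.915, 0.913 and 0.886). ccne2 was most like zgc:112234, hnrnpa0a and sox11a (0.922, 0.922 and 0.918).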

How the data were processed

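The authors deposited 1 table of linear probe intensity values, 1 column per dye channel. Per the submitters' processing notes, Agilent Feature Extraction was used. Per the labels' design text, Cy3 and Cy5 were separated and quantile-normalised by the authors. How background was corrected is not stated. In 14 columns the sorted values were identical. The 2 others (MZ_Sox2 replicate 4 and MZ_Pou5f1 replicate 2) were mapped by rank onto that distribution (median intensity 55.07), and the deposited intensities were then taken to log2. Of 21555 features, 60 controls were left out. Of 21495 probes, 12887 had 1 gene symbol and 8608 none. The RefSeq gene table of GRCz12tu held 12807 of the named probes and was used for names only.

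All 16 samples entered 1 limma fit (version 3.58.1, R 4.3.3) with a mean per group, dye as covariate and array as a random block (correlation 0.04286, because 3 arrays held 2 of the samples). The two-sided moderated tests were adjusted over 21495 probes by Benjamini-Hochberg, at 0.05. The fit was run on simulated data with independent noise and without the array block, so the fit with the block was not itself tested. Correlation tests used 100000 permutations (Python 3.11.15, scipy 1.17.1). These permutations exchanged all samples freely, without regard to group, slide, dye or shared array, so every permutation p may be too small. All member probes are named. Other lists gave the 2 genes with the largest moderated F, and likeness the 3 genes with the highest correlation. The members and lists were chosen with earlier results of these data known. Alternatives covered normalization, dye, blocks, dim probes, other probes and left-out samples.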

Additional observations from a re-analysis of the deposited data

Results flagged for a closer look

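In the MZ_Sox2 group of 4 samples, replicate 2 stood apart on 2 of the 3 ccna2 probes. On A_15_P119397 it had an intensity of 704.5, against 1590 to 1865 in the other MZ_Sox2 samples, and its gap to the nearest was 0.836 of the group's whole range, above Dixon's critical value for 4 samples. On A_15_P117095 it had 383.2, against 820.2 to 950.9, with a share of 0.837 on the log2 scale. The linear intensities give smaller shares on both probes, under the critical value, so the flag depends on the scale. Chance flags about 1 in 20 groups. The 3 ccna2 probes read the same gene in the same samples, so these are not 2 separate cases. MZ_Sox2 replicate 2 also had the highest ccne2 values of all samples, 1174 on A_15_P101953 and 690.9 on A_15_P115512.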

How the results depend on the processing

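Of 2282 values of member differences under the alternatives, 2083 kept their direction and their side of limma's threshold, 198 had the other sign and 1 passed the threshold. Over samples left out in turn, the member probes called in MZ_Pou5f1 against MZ numbered 0 to 1, with ccna2 A_15_P116796 at 2.23 (adjusted p = 0.043) without MZ replicate 3. With slide as a fixed block, ccne2 A_15_P115512 in MZ_Sox2 against WT_Sox2 was −0.69, and the cause was not tested. With the replicate block, 0 member probes were called in each comparison. Of 30 pairs of same-numbered samples, 5 had deviations from their group means that correlated over 0.1 (range −0.542 to 0.407). Pairs of different numbers were not set beside them, so whether the numbers pair samples was not settled. Averaging WT replicates 1 and 2, leaving out the 2 samples of another distribution, and leaving out MZ replicate 1 and WT replicate 3 were chosen after seeing the data, and each left 0 member probes called. Without MZ replicate 1 and WT replicate 3, ccna2 A_15_P117095 in WT_Sox2 against WT was 0.89 and in MZ_Pou5f1 against WT 0.66. Slide as a fixed block was not run for MZ_Sox2 against MZ and WT_Sox2 against WT, which shared no slide. The fit with averaged WT samples had no array block. Probes at low signal are limited by background. The nearest to the dark feature was ccna2 A_15_P116796, at 1.79 times that feature in MZ replicate 1, where the negative control feature read 13.48 and the dark feature 132.7. In the same sample ccne2 A_15_P115512 stood at 1.94 times the dark feature.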
